A study of Mus musculus with 36 samples.

Results

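The genes described here are 9 genes of the retinoic acid pathway, found by symbol among the 55487 Ensembl identifiers of a table of raw read counts, and they were compared between genotypes within each run. They are Stra6 (cellular uptake of retinol), Aldh1a1, Aldh1a2, Aldh1a3 and Aldh1a7 (aldehyde dehydrogenases of the ALDH1A group), Crabp1 and Crabp2 (cellular retinoic acid-binding proteins), Cyp26b1 (a retinoic acid hydroxylase) and Rarb (a retinoic acid receptor). Of these 9 genes, 8 passed the expression filter of edgeR and were tested among 15489 genes. Stra6 did not pass and is given by its counts.

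Retinoic acid is made from vitamin A in successive oxidation steps. Retinol is converted to retinaldehyde, and ALDH1A enzymes then oxidise retinaldehyde irreversibly to retinoic acid. CRABP proteins carry the acid in the cytosol, RAR-RXR receptor pairs bind it in the nucleus and change transcription from retinoic acid response elements, and CYP26 enzymes inactivate it. In the embryo, ALDH1A and CYP26 enzymes made in neighbouring tissues set up local differences in retinoic acid, and mesenchymal cells express several of these genes. Mouse Aldh1a7 is a close relative of Aldh1a1 whose activity on retinaldehyde is regarded as weak.

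The libraries came from mouse embryonic fibroblasts (MEFs), primary cells grown from embryos at E13.5 after removal of the head and organs, which were given vehicle or 1 µM dexamethasone (Dex), a synthetic glucocorticoid, for 5 h. The glucocorticoid receptor (GR) was wild-type (GRwt/wt) or knocked out (GRko/ko), or it carried point mutations. These lay in the dimer interface of its DNA-binding domain (GRD/D), in its ligand-binding domain (GRL/L) or in both (GRD+L/D+L). The mutant lines were made to study dimer contacts in each domain. The study also reports weaker ligand binding in GRL/L and GRD+L/D+L, and proposes that high Dex doses compensate for it. A changed response in these genotypes therefore cannot be laid to dimer contacts alone. Run 1 held GRwt/wt replicates 1 to 3, GRD/D, GRD+L/D+L and GRko/ko, and run 2 held GRwt/wt replicates 4 to 6 and GRL/L, with 3 libraries per genotype, run and treatment and 36 in all. By the labels all cells were of the FVB/NJ strain, but the study's methods name another strain for the knockout line, so genotype and strain cannot be told apart for GRko/ko. The L allele was made with CRISPR/Cas9 in zygotes, and the line with both changes goes back to 1 founder pup.

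The libraries held 15280166 to 28662608 counts. CPM (counts-per-million) values are counts relative to the library total, corrected by the TMM factor. Nr3c1, which encodes GR, lay at 15.9 to 20.3 CPM in the 6 GRko/ko libraries and at 47.8 to 104.5 CPM in the other 30. Fkbp5, a GR target, was at 315.0 to 327.0 CPM with Dex against 47.5 to 67.4 with vehicle in GRwt/wt of run 1, and at 661.3 to 668.7 against 49.4 to 54.2 in run 2. In GRko/ko it was at 55.5 to 60.8 with Dex and 56.6 to 63.1 with vehicle. All 10 fibroblast markers checked were above 3 counts in every library, with a summed level of at least 31784 CPM. Some ranged widely between libraries, Lum from 1.57 to 307 CPM, Pdgfra from 15.6 to 435 and Dcn from 30.7 to 680. Others, such as Col1a2 (6409 to 10297) and Pdgfrb (250 to 444), varied less. The study describes the 3 cultures of a genotype as coming from different mice, which the labels do not state. If they did not, the standard errors and p-values below do not measure variation between mice. In all 12 groups the 3 libraries had the same sex by Xist and Ddx3y counts: GRwt/wt of run 1 and GRD/D had high Xist, and GRD+L/D+L, GRko/ko, GRL/L and GRwt/wt of run 2 had high Ddx3y. Sex therefore cannot be told apart from genotype for GRD+L/D+L and GRko/ko, nor from run in GRwt/wt. The GRko/ko libraries also held some Xist, at 22 to 31 counts with vehicle and 17 to 236 with Dex. Libraries of the other groups with high Ddx3y held at most 9.

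Fold changes are log2 differences with their standard error (SE). Adjusted p-values come from the quasi-likelihood test of edgeR, adjusted by Benjamini-Hochberg over all 15489 genes. A Dex response or a vehicle difference was called at an adjusted p of at most 0.05 and an absolute log2 value of at least 1. Responses were compared through interaction contrasts, for which the adjusted p alone decided.

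In GRwt/wt, Dex changed the genes for retinoic acid synthesis in opposite directions. Aldh1a7 and Aldh1a1 rose, Aldh1a3 fell, and the degrading enzyme Cyp26b1 rose. These 4 of 8 members were called in run 1 and the same 4 in run 2, where 2.01% and 4.49% of all genes tested were called. Over the mean of both runs they were again the 4 members called, against 3.06% of all genes. With the adjusted p alone, 5 of 8 members passed in run 1 (13.9% of all genes) and 5 in run 2 (31.6%), the fifth being Crabp2, and 6 of 8 passed in the mean of the runs (32.5%), the sixth being Aldh1a2. The median absolute log2 response of the 8 members was 0.91 in run 1 and 1.13 in run 2, and that of all genes tested 0.13 and 0.16. The members were chosen with earlier results of these data known. These shares and medians, here and below, are therefore descriptions and not tests.

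Per kilobase of merged exons of all annotated transcripts, a scale on which genes can be set beside each other, Crabp1 stood far above the others, at 492.9 CPM per kb in vehicle-treated GRwt/wt MEFs of run 1 and 669.1 in run 2. Crabp2 followed at 10.5 and 13.4. Aldh1a3 (2.46 and 3.84) and Aldh1a2 (2.50 and 1.90) were the highest ALDH1A genes on this scale before Dex, and in run 1 they did not differ beyond their spread. Cyp26b1 lay at 1.10 and 5.37, Aldh1a7 at 0.646 and 0.866, Aldh1a1 at 0.147 and 0.989, Rarb at 0.0794 and 0.172 and Stra6 at 0.0299 and 0.0358. The merged exons of Aldh1a1 span 4937 bases. Per kilobase of its transcript of 2053 bases it lay at 0.353 and 2.38, in run 2 above Aldh1a2 at 1.90. Per kilobase of its transcript of 3443 bases, Aldh1a3 lay at 3.29 and 5.15, above Aldh1a2 at 2.50 and 1.90 in both runs. On the scale of merged exons, the order of Cyp26b1 against Aldh1a2 and Aldh1a3 differed between the runs.

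**Figure D1:**
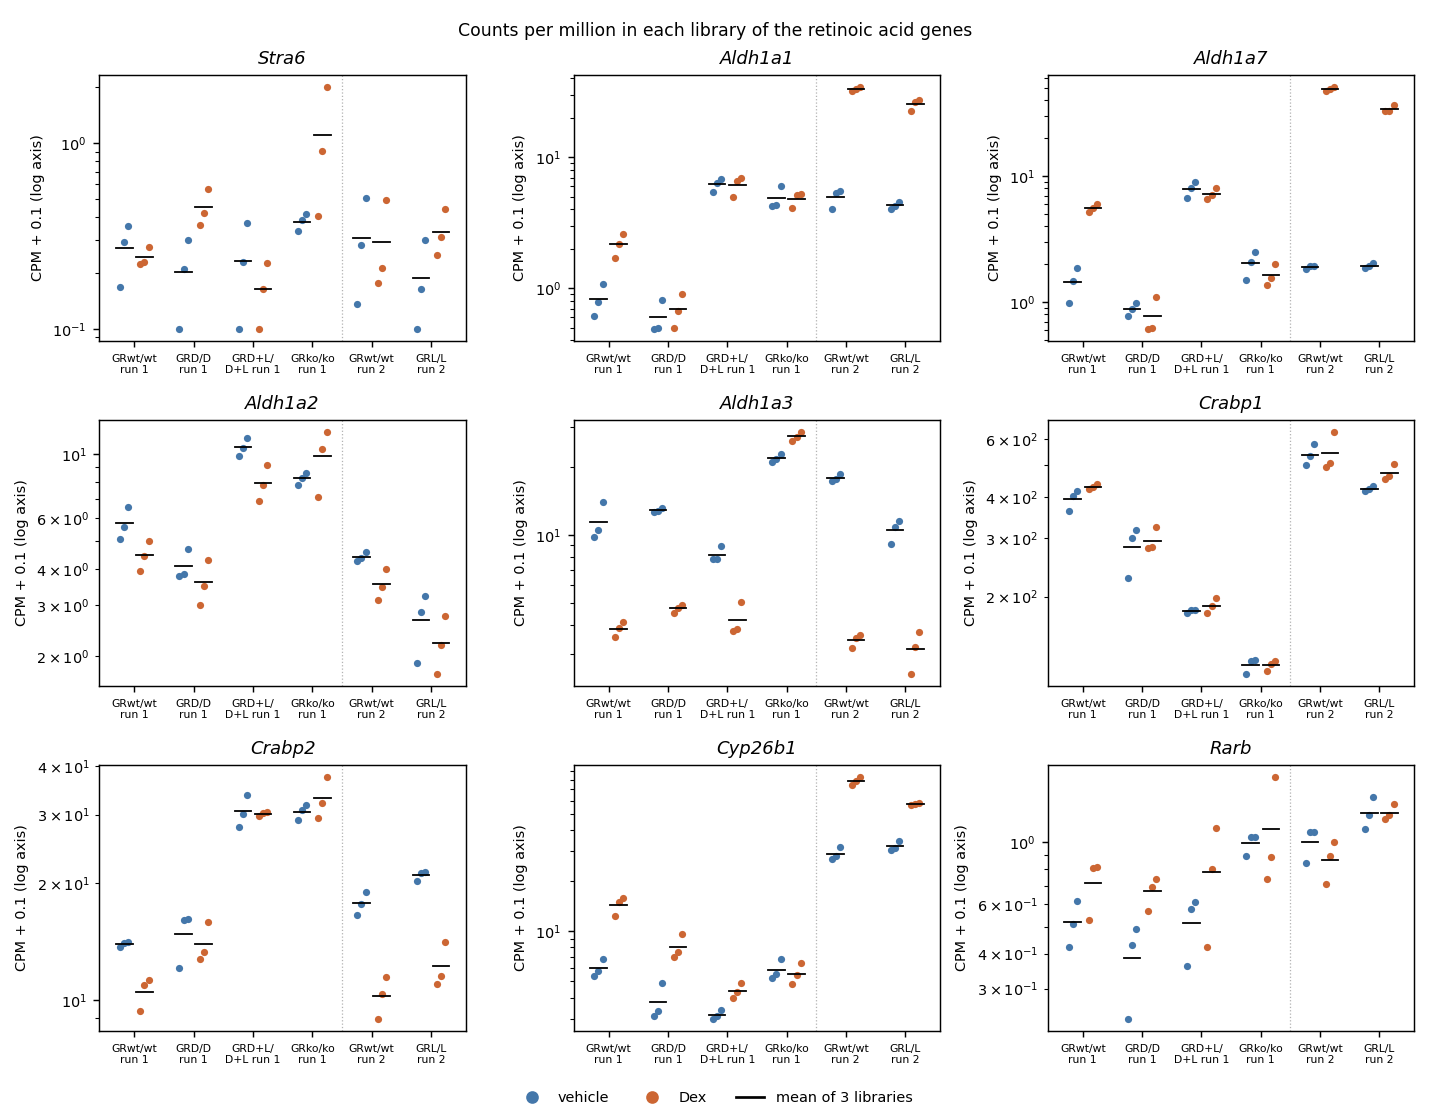
Scaled counts (CPM + 0.1, log axis) of the 9 genes in each of the 36 libraries, by genotype and run, with blue points for vehicle, orange points for Dex and a black bar for the mean of 3 libraries; the dotted line separates run 1 from run 2. Aldh1a7 in run 2 goes from 1.73 to 1.82 CPM with vehicle to 47.3 to 51.3 CPM with Dex, and Aldh1a3 moves down in every genotype except GRko/ko.

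Stra6, the membrane receptor that takes up retinol from its carrier protein (chr9:58063788-58153996, mm10, plus strand), was close to undetected. It had 0 to 11 counts in the 30 libraries of the 4 genotypes with a GR protein. The GRko/ko libraries had 4, 5 and 5 counts with vehicle and 14, 5 and 32 with Dex, so the highest value came from 1 library and the 2 groups shared the value 5. No fold change is given for counts this low, and 55036 bases of the gene overlap Ccdc33 on the other strand, although no exon bases are shared.

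Aldh1a1 (chr19:20492715-20643465, plus strand) and Aldh1a7 (chr19:20692953-20727562, minus strand) lie end to end on chromosome 19, with 49487 bases between them. Their transcripts of 2053 and 2066 bases were 89.6% identical when aligned, against 65.1% for Aldh1a1 and Aldh1a2 and 67.5% for Aldh1a1 and Aldh1a3. Of all 75-base words of the Aldh1a7 transcript, 2.51% also occur in an Aldh1a1 transcript, and 7.49% of the 50-base words, so uniquely mapped reads could tell most of the transcripts apart, but counts of each may still miss reads from shared stretches. The likeness goes on before the start sites compared. For Aldh1a1 the start furthest downstream among its RefSeq windows was taken, which lies inside the gene span given above. The 110 bases before the annotated starts are shown because these 2 genes moved together in the data; capitals mark the positions at which the sequences are identical, 104 of 110 (94.5%), with a longest identical run of 65 bases (RefSeq annotation, GRCm38.p6, each 5′ to 3′ on the strand of the gene; Aldh1a7 chr19:20727557-20727666, minus; Aldh1a1 chr19:20601858-20601967, plus).
Aldh1a7: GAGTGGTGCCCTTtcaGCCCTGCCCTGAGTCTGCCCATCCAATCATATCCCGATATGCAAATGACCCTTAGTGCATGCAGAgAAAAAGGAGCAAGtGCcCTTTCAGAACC
Aldh1a1: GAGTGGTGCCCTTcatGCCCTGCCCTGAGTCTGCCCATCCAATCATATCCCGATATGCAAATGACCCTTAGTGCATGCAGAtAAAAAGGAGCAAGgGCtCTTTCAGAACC

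Neither stretch holds the full palindrome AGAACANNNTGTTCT that GR binds as a dimer. In windows from 250 bases before to 50 bases after each start, searched on both strands, it was in 0 of 11 windows of the members and in 3 of 32851 windows in all (0.00913%). Windows were given for 7 of the 9 genes. That says only that these letters are not in these windows. The TATAAA motif was in 13.6% of all windows and among the members in those of Aldh1a7 and Cyp26b1.

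Aldh1a7 had the largest response to Dex of the 8 members in both runs of GRwt/wt. In run 1 its 3 vehicle libraries were at 1.75, 0.890 and 1.36 CPM and its 3 Dex libraries at 5.49, 5.96 and 5.09 CPM. In run 2 the vehicle libraries were at 1.73, 1.82 and 1.82 CPM and the Dex libraries at 51.3, 47.3 and 49.3 CPM. The groups did not overlap in either run, and the start level was alike while the level with Dex was several times higher in run 2. The log2 response was 2.03 (SE 0.19, 4.09-fold, adjusted p = 1.22e-10 from edgeR) in run 1 and 4.78 (SE 0.11, 27.5-fold, adjusted p = 1.98e-28 from edgeR) in run 2. The difference between the runs was 2.75 (SE 0.27, adjusted p = 2.84e-09 from edgeR), a comparison in which 3 of the 8 members and 7.09% of all genes tested passed. With the study's formula, in which both runs share 1 GRwt/wt response, the shared value was 4.22.

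GRL/L responded and the 3 other mutants did not pass the test for Aldh1a7. GRL/L was at 1.76, 1.83 and 1.95 CPM with vehicle and at 32.7, 32.6 and 36.8 CPM with Dex, again without overlap. GRD/D was at 0.669, 0.878 and 0.781 CPM with vehicle and 0.528, 0.513 and 1.00 with Dex. These GRD/D values rest on 8 to 16 counts per library and overlap. GRD+L/D+L was at 6.62, 8.88 and 7.89 CPM with vehicle and 6.49, 7.02 and 7.94 with Dex, and GRko/ko at 2.41, 1.98 and 1.39 against 1.91, 1.46 and 1.26. Both pairs of groups overlap, and GRD+L/D+L was above the level of GRwt/wt with Dex in run 1 already without Dex. The log2 response was 4.20 (SE 0.11, 18.4-fold) in GRL/L, −0.20 (SE 0.34) in GRD/D, −0.13 (SE 0.13) in GRD+L/D+L and −0.33 (SE 0.22) in GRko/ko.

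Tested against GRwt/wt of the same run, the Aldh1a7 response was lower, with log2 differences of −2.24 in GRD/D (SE 0.40, adjusted p = 0.000266 from edgeR), −2.16 in GRD+L/D+L (SE 0.23, adjusted p = 2e-08) and −2.36 in GRko/ko (SE 0.30, adjusted p = 2.66e-07). In GRL/L the difference of −0.58 (SE 0.19) did not pass (adjusted p = 0.122 from edgeR). With the study's formula these differences were −4.42 in GRD/D, −4.35 in GRD+L/D+L and −4.54 in GRko/ko, all past the threshold. The difference between GRD+L/D+L and GRD/D was 0.08 (SE 0.36, adjusted p = 0.971 from edgeR).

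Aldh1a1, the cytosolic retinaldehyde dehydrogenase, also rose with Dex in both runs of GRwt/wt and in GRL/L. In GRwt/wt of run 1 it was at 0.519, 0.685 and 0.972 CPM with vehicle (8 to 15 counts) and 1.59, 2.07 and 2.52 CPM with Dex. In run 2 it was at 5.25, 5.47 and 3.93 CPM with vehicle and 33.1, 34.5 and 31.6 with Dex. Dex and vehicle did not overlap in either run, and run 2 lay higher from the start. GRL/L was at 4.49, 4.17 and 3.96 CPM with vehicle and 22.3, 26.5 and 27.3 with Dex. GRD/D (0.402, 0.714 and 0.391 against 0.396, 0.577 and 0.803 CPM), GRD+L/D+L (6.30, 5.31 and 6.73 against 4.84, 6.82 and 6.52) and GRko/ko (4.17, 4.25 and 5.94 against 4.002, 5.04 and 5.15) overlapped between treatments. Aldh1a1 was therefore low in GRD/D with either treatment. In GRD+L/D+L and GRko/ko it lay above vehicle-treated GRwt/wt of run 1 with either treatment. The vehicle libraries of both genotypes overlapped those of GRwt/wt run 2.

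The log2 response of Aldh1a1 was 1.49 (SE 0.31, adjusted p = 0.000606 from edgeR) in GRwt/wt of run 1, 2.76 (SE 0.11) in run 2 and 2.59 (SE 0.12) in GRL/L. It was 0.21 (SE 0.45) in GRD/D, −0.01 (SE 0.16) in GRD+L/D+L and −0.01 (SE 0.17) in GRko/ko, none of which passed. Against GRwt/wt of run 1 the response was lower in GRD+L/D+L (−1.50, SE 0.35, adjusted p = 0.00802 from edgeR) and in GRko/ko (−1.51, SE 0.36, adjusted p = 0.00442), whereas the difference of −1.28 in GRD/D did not pass (SE 0.56, adjusted p = 0.324 from edgeR). The difference of GRL/L was −0.16 (SE 0.17, adjusted p = 0.768 from edgeR), and the response of GRwt/wt was 1.26 higher in run 2 than in run 1 (SE 0.38, adjusted p = 0.0343). With the study's formula the GRwt/wt response of Aldh1a1 was 2.63 and its differences −2.42 in GRD/D (adjusted p = 0.00331 from edgeR), −2.64 in GRD+L/D+L and −2.64 in GRko/ko, so GRD/D passed there. Without 1 library of GRwt/wt run 1 the call for GRD+L/D+L was lost for Dex replicate 3 (adjusted p = 0.0534 from edgeR) and vehicle replicate 1 (0.0633). The run difference was lost in the same way without run 1 Dex replicate 1 (0.0946) or 2 (0.0567), run 1 vehicle replicate 2 (0.087) or 3 (0.253), or run 2 vehicle replicate 6 (0.0593).

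Aldh1a3 (chr7:66390890-66427517, minus strand), a retinaldehyde dehydrogenase of the developing eye and nose, went the other way. In GRwt/wt of run 1 it was at 13.9, 9.65 and 10.4 CPM with vehicle and 4.02, 3.43 and 3.80 CPM with Dex. In run 2 it was at 17.1, 17.6 and 18.4 CPM with vehicle and 3.52, 3.42 and 3.08 with Dex. The groups did not overlap in either run, and the levels with Dex lay within about 1 CPM of each other although the start levels differed. GRD/D fell from 12.5, 12.6 and 13.1 to 4.82, 4.42 and 4.68 CPM, and GRL/L from 9.02, 10.8 and 11.4 to 3.65, 2.34 and 3.11 CPM. GRD+L/D+L was at 7.74, 7.73 and 8.84 CPM with vehicle and 3.75, 4.97 and 3.68 with Dex. Dex lay below vehicle without overlap in these 3 mutants. GRko/ko alone had the opposite order, with 22.7, 20.9 and 21.5 CPM with vehicle and 27.0, 25.98 and 28.5 CPM with Dex.

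The log2 response of Aldh1a3 was −1.59 (SE 0.14, 3.02-fold lower) in GRwt/wt of run 1, −2.41 (SE 0.11, 5.30-fold lower) in run 2, −1.46 (SE 0.13, adjusted p = 9.52e-11 from edgeR) in GRD/D and −1.76 (SE 0.12, adjusted p = 2.81e-14) in GRL/L. In GRD+L/D+L it was −0.97 (SE 0.14, adjusted p = 1.02e-05 from edgeR), just under the fold limit. Without Dex replicate 2 of GRD+L/D+L it was −1.12 and past the limit. In GRko/ko the value of 0.32 (SE 0.09) did not pass (adjusted p = 0.547 from edgeR). The response of GRko/ko was 1.92 higher than that of GRwt/wt (SE 0.17, adjusted p = 4.78e-11 from edgeR), whereas the differences of 0.14 in GRD/D (SE 0.20, adjusted p = 0.896) and 0.63 in GRD+L/D+L (SE 0.21, adjusted p = 0.103) did not pass. That of GRD+L/D+L passed without GRwt/wt vehicle replicate 2 of run 1 (adjusted p = 0.0373 from edgeR) and with the study's formula (1.12, adjusted p = 0.000516).

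In GRL/L the fall of Aldh1a3 was smaller than in GRwt/wt of run 2 by 0.64 (SE 0.18, adjusted p = 0.0459 from edgeR). This call rests on nearly every library: leaving out any 1 of 10 of the 12 ended it (adjusted p 0.0597 to 0.272), the exceptions being GRL/L Dex replicate 2 and GRL/L vehicle replicate 3. It was also lost when only run 2 was fitted (adjusted p = 0.117 from edgeR), with the replicate block (0.0715) and with the study's formula, where the difference was 0.32 (adjusted p = 0.663). GRwt/wt fell more in run 2 than in run 1 (−0.81, SE 0.19, adjusted p = 0.00404 from edgeR).

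Aldh1a2 (chr9:71215789-71296243, plus strand), the ALDH1A enzyme of the early embryo's mesoderm, passed in no single set of libraries. In GRwt/wt it was at 5.51, 5.00 and 6.48 CPM with vehicle and 3.84, 4.92 and 4.36 with Dex in run 1, and at 4.16, 4.26 and 4.49 against 3.92, 3.04 and 3.38 in run 2. Dex lay below vehicle without overlap in each run, yet the log2 values of −0.38 (SE 0.19) and −0.32 (SE 0.17) did not pass within a run (adjusted p = 0.216 and 0.163 from edgeR). The mean of the runs was −0.35 (SE 0.13, adjusted p = 0.0349 from edgeR), which did not hold without any of 7 of the 12 libraries (adjusted p 0.0512 to 0.116): run 1 Dex replicates 1 and 3 and vehicle replicate 3, and run 2 Dex replicates 5 and 6 and vehicle replicates 5 and 6. In GRD+L/D+L it was at 9.71, 10.4 and 11.3 CPM with vehicle and 9.10, 7.72 and 6.78 with Dex, also without overlap, with a log2 value of −0.41 (SE 0.16, adjusted p = 0.164 from edgeR). The treatments overlapped in the other mutants, at −0.20 (SE 0.21) in GRD/D, −0.26 (SE 0.20) in GRL/L and 0.26 (SE 0.16) in GRko/ko. The difference of GRko/ko from GRwt/wt was 0.64 (SE 0.25, adjusted p = 0.114 from edgeR), and it passed without GRko/ko Dex replicate 1 (0.0166), with no filter (0.0384) and with the study's formula (0.0368).

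Crabp1 (chr9:54764748-54773110, plus strand), the most abundant member, did not pass in any Dex response, with log2 values between 0.00 in GRko/ko and 0.16 in GRL/L and SE of 0.08 to 0.09. Its levels ran from 116.5 CPM in a GRko/ko library to 631.6 CPM in a GRwt/wt library of run 2. Crabp2 (chr3:87948666-87953376, plus strand), which passes retinoic acid to RAR in the nucleus, fell with Dex in 3 of the 6 sets. In GRwt/wt it went from 13.6, 14.04 and 13.9 CPM to 9.27, 10.9 and 11.2 CPM in run 1, and from 18.9, 17.6 and 16.5 to 11.4, 10.3 and 8.87 in run 2. In GRL/L it went from 21.2, 21.1 and 20.2 to 11.4, 14.04 and 10.9 CPM. The groups did not overlap in these 3 sets, and they overlapped in GRD/D, GRD+L/D+L and GRko/ko.

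The log2 response of Crabp2 was −0.41 (SE 0.12, adjusted p = 0.0202 from edgeR) in GRwt/wt of run 1, −0.80 (SE 0.10, adjusted p = 8e-08) in run 2 and −0.79 (SE 0.10, adjusted p = 7.17e-08) in GRL/L, all under the fold limit. In GRD/D, GRD+L/D+L and GRko/ko it was −0.08, −0.02 and 0.11. The difference from GRwt/wt passed for GRko/ko at 0.52 (SE 0.16, adjusted p = 0.0271 from edgeR) and not for GRD/D at 0.33 (adjusted p = 0.457) or GRD+L/D+L at 0.39 (adjusted p = 0.248). The GRko/ko call was lost without GRko/ko Dex replicate 3 (adjusted p = 0.099 from edgeR), GRko/ko vehicle replicate 2 (0.0623), or GRwt/wt run 1 Dex replicate 1 (0.108), vehicle replicate 2 (0.0538) or vehicle replicate 3 (0.0526). With the study's formula the GRwt/wt response was −0.64, and the differences of 0.56 in GRD/D (adjusted p = 0.0154 from edgeR) and 0.61 in GRD+L/D+L (0.0024) passed. The run 1 response itself was lost without Dex replicate 1 (0.132) and vehicle replicates 2 (0.0555) and 3 (0.0585).

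Cyp26b1 (chr6:84571414-84593908, minus strand), which hydroxylates retinoic acid and so inactivates it, rose with Dex in 4 sets of libraries. In GRwt/wt of run 1 it was at 5.25, 6.71 and 5.70 CPM with vehicle and 12.1, 15.7 and 14.7 CPM with Dex. In run 2 it was at 28.0, 26.8 and 31.5 CPM with vehicle and 74.5, 83.3 and 78.6 with Dex. The groups did not overlap, and the runs differed about as much in the start level as in the level with Dex. GRD/D was at 3.01, 3.24 and 4.80 CPM with vehicle and 6.86, 7.44 and 9.50 with Dex, and GRL/L at 34.1, 31.1 and 30.4 against 57.7, 56.1 and 56.8. GRD+L/D+L was at 2.89, 3.00 and 3.26 CPM against 4.20, 4.78 and 3.87. Dex lay above vehicle without overlap in these 3 mutants. In GRko/ko the values were 5.17, 5.44 and 6.70 CPM with vehicle and 4.76, 6.31 and 5.33 with Dex and overlapped.

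The log2 response of Cyp26b1 was 1.27 (SE 0.13, 2.40-fold) in GRwt/wt of run 1, 1.46 (SE 0.08, 2.74-fold) in run 2, 1.09 (SE 0.16, adjusted p = 3.48e-06 from edgeR) in GRD/D and 0.83 (SE 0.08, adjusted p = 1.16e-10, under the fold limit) in GRL/L. In GRD+L/D+L it was 0.49 (SE 0.19, adjusted p = 0.165 from edgeR) and in GRko/ko −0.08 (SE 0.15). The GRD/D value came under the fold limit without Dex replicate 3 (0.95), vehicle replicate 1 (0.98) or vehicle replicate 2 (0.996), always with an adjusted p of at most 0.000169 by edgeR. Against GRwt/wt of the same run the response was lower in GRL/L (−0.62, SE 0.11, adjusted p = 0.000568 from edgeR) and in GRko/ko (−1.34, SE 0.20, adjusted p = 7.64e-06). The differences of −0.17 in GRD/D (SE 0.21, adjusted p = 0.866 from edgeR) and −0.77 in GRD+L/D+L (SE 0.24, adjusted p = 0.0658) did not pass. The latter passed without GRwt/wt run 1 Dex replicate 1 (adjusted p = 0.0267 from edgeR) or vehicle replicate 2 (0.0423), and with DESeq2 (adjusted p = 0.0152), no filter (0.0118), the replicate block (0.0159) or the study's formula (0.00316). The response of Cyp26b1 did not differ past the threshold between the runs of GRwt/wt (0.19, SE 0.16, adjusted p = 0.594 from edgeR).

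Rarb (chr14:16430839-16819156, minus strand) is itself a textbook target of retinoic acid, through a response element in its inner promoter. That element is shown because Rarb is the pathway's own readout among the 9 genes. The 100 bases before the annotated start (RefSeq annotation, GRCm38.p6, chr14:16575477-16575576, minus strand, 5′ to 3′) hold the letters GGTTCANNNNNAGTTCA, in capitals, from 53 to 37 bases before the start. Searched on both strands, 2 of 32851 windows held this motif (0.00609%), of which Rarb was the member, and the consensus form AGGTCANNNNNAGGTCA was in 3 windows (0.00913%), none of a member.
Rarb: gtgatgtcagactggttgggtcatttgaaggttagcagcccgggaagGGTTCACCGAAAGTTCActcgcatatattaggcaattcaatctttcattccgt

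Rarb had 2 to 41 counts per library and passed in no Dex response. In GRwt/wt it had 5, 6 and 8 counts with vehicle and 12, 11 and 7 with Dex in run 1, and 28, 27 and 20 against 20, 16 and 24 in run 2. The groups overlapped in both runs. The log2 values were 0.55 (SE 0.42) and −0.24 (SE 0.28), and the largest was 0.94 in GRD/D (SE 0.46, adjusted p = 0.19 from edgeR). Even that value did not pass, so at this depth differences well above the standard errors may have gone undetected. Of the exon bases of Rarb, 34.1% are shared with Top2b on the other strand. The strand setting of the counting is not given in the sources used here, so reads of the 2 genes may not have been told apart.

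**Figure D2:**
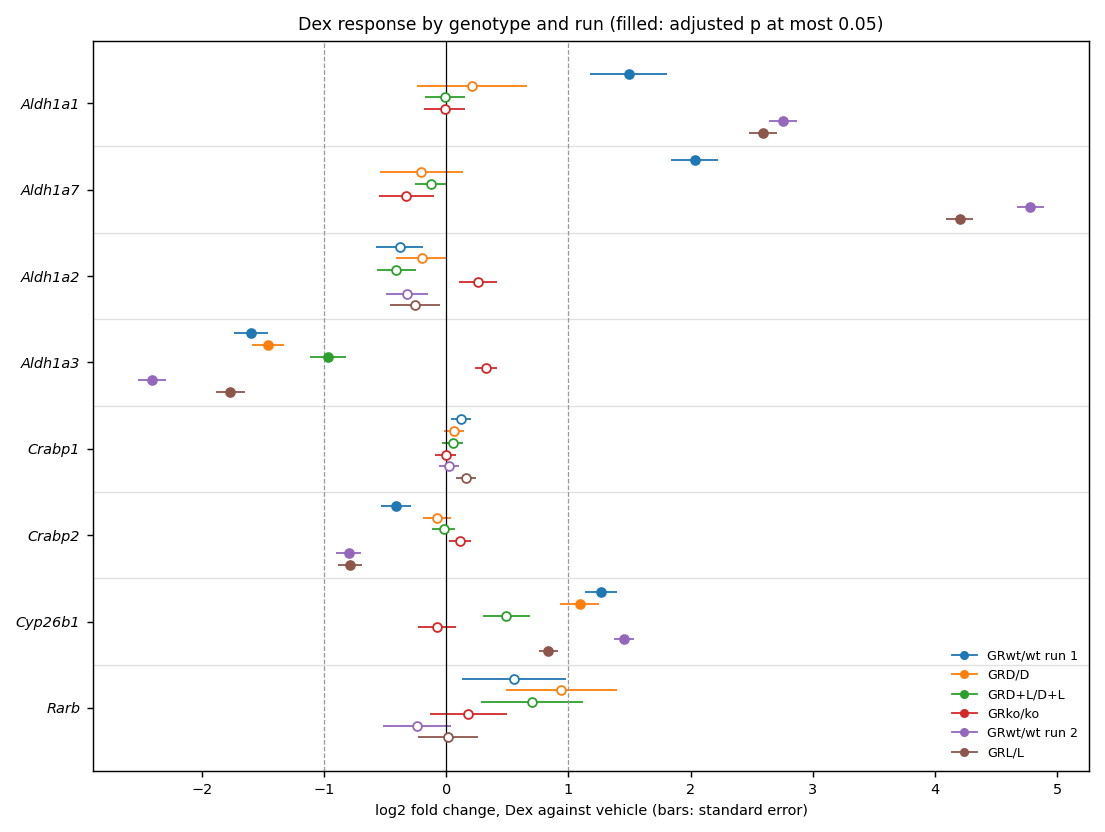
Log2 fold change of Dex against vehicle (bars, standard error) of the 8 tested genes in each genotype and run, with 3 libraries per treatment; filled points have an adjusted p of at most 0.05 and dashed lines mark the limits of −1 and 1. Aldh1a7 and Aldh1a1 are at 2.59 or higher in GRwt/wt run 2 and GRL/L and near 0 in GRD/D, GRD+L/D+L and GRko/ko, whereas Aldh1a3 is below 0 in every set except GRko/ko.

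By genotype, GRD/D had 2 of 8 members called in its Dex response (Aldh1a3 and Cyp26b1; 0.981% of all genes tested), GRL/L had 3 (Aldh1a1, Aldh1a7 and Aldh1a3; 2.56%) and GRD+L/D+L had 0 (0.4%). With the adjusted p alone the counts were 2 (11.9% of all genes), 5 (19.1%) and 1 (Aldh1a3; 5%). In GRko/ko 0 members and 0% of all genes passed edgeR's test at either threshold, with 859 genes at an unadjusted p under 0.05, and DESeq2 also called 0 members. The response differed from that of GRwt/wt in the same run for 1 member in GRD/D (Aldh1a7; 3.29% of all genes), 2 in GRD+L/D+L (Aldh1a7 and Aldh1a1; 3.23%), 5 in GRko/ko (8.48%) and 2 in GRL/L (Cyp26b1 and Aldh1a3; 1.85%). Between GRD+L/D+L and GRD/D it differed for 0 members at an adjusted p of at most 0.05 in edgeR, with 0.0775% of all genes. The run 1 comparisons share the same GRwt/wt libraries. The set of genes kept in GRD/D was thus Aldh1a3 and Cyp26b1, and the gene whose response was lower there by a test of the difference was Aldh1a7.

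Levels without Dex also differed between genotypes, most in GRD+L/D+L and GRko/ko. Of 8 members, 4 were called against vehicle-treated GRwt/wt in GRD+L/D+L (5.57% of all genes) and 4 in GRko/ko (14.2%), and 0 in GRD/D (2.12%) and GRL/L (1.31%). With the adjusted p alone there were 7 in GRD+L/D+L (29.9%), 6 in GRko/ko (45.6%), 2 in GRD/D (9.55%) and 3 in GRL/L (11.3%). The median absolute log2 difference of the 8 members was 1.04 in GRD+L/D+L and 1.01 in GRko/ko, and that of all genes 0.18 and 0.23. In bulk RNA such a difference can be more cells of a type or more RNA per cell, which cannot be told apart.

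In GRD+L/D+L, Aldh1a1 was 3.06 higher on the log2 scale (SE 0.25, adjusted p = 4.04e-12 from edgeR), Aldh1a7 2.53 higher (SE 0.18, adjusted p = 9.1e-14) and Crabp2 1.14 higher (SE 0.11, adjusted p = 1.18e-10). The 3 GRD+L/D+L vehicle libraries lay above all 3 of GRwt/wt run 1 for each of these genes. For Aldh1a1, vehicle-treated GRwt/wt of run 2 (3.93 to 5.47 CPM) overlapped GRD+L/D+L (5.31 to 6.73) and GRko/ko (4.17 to 5.94). Aldh1a2 was 0.88 higher (SE 0.17, under the fold limit), at 9.71, 10.4 and 11.3 CPM. With the study's formula, against GRwt/wt values fitted over both runs and not the measured level of run 1, the Aldh1a7 difference was 4.41. Crabp1 was lower, with a log2 difference of −1.13 (SE 0.09, adjusted p = 5.7e-13 from edgeR), at 177.7, 182.0 and 182.0 CPM against 418.2, 363.7 and 404.0. Cyp26b1 (−0.95, SE 0.18) and Aldh1a3 (−0.49, SE 0.12) were lower at an adjusted p alone. The Aldh1a3 difference did not pass without GRwt/wt vehicle replicate 1 (−0.32, adjusted p = 0.0546 from edgeR).

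GRko/ko shared the direction of GRD+L/D+L for Aldh1a1 (2.70, SE 0.26, adjusted p = 4.69e-11 from edgeR), Crabp2 (1.13, SE 0.11) and Crabp1 (−1.67, SE 0.09, adjusted p = 2.09e-18), both comparisons resting on the same GRwt/wt libraries. Its 3 vehicle libraries had 127.2, 128.3 and 116.5 CPM of Crabp1 and 30.8, 29.0 and 31.6 CPM of Crabp2, against 13.6, 14.04 and 13.9 CPM of Crabp2 in GRwt/wt. Aldh1a7 differed by 0.53 (SE 0.24), which did not pass (adjusted p = 0.0646 from edgeR). It passed without GRko/ko vehicle replicate 3 (0.0188) or GRwt/wt vehicle replicate 1 (0.0216). It also passed with the study's formula, at 2.41 (adjusted p = 1.29e-05 from edgeR). That formula sets GRko/ko against GRwt/wt values fitted over both runs. The measured vehicle libraries of run 1 overlapped, at 1.39 to 2.41 CPM in GRko/ko and 0.890 to 1.75 in GRwt/wt. Aldh1a3 was 0.93 higher (SE 0.10, adjusted p = 1.44e-09 from edgeR) and 1.11 higher without GRwt/wt vehicle replicate 1. Aldh1a2 was 0.52 higher (SE 0.17, adjusted p = 0.0127 from edgeR), a call that was lost without GRwt/wt vehicle replicate 2 (0.071). Rarb was 1.08 higher (SE 0.39, adjusted p = 0.0218 from edgeR) on 14 to 16 counts against 5 to 8, and this was lost without GRko/ko vehicle replicate 1 (0.0562) or 3 (0.0555) or GRwt/wt vehicle replicate 1 (0.0913) or 2 (0.0554).

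In GRD/D, Crabp1 (−0.49, SE 0.08, adjusted p = 8.36e-05 from edgeR) and Cyp26b1 (−0.66, SE 0.17, adjusted p = 0.0073) were lower at an adjusted p alone. The Cyp26b1 difference did not pass without GRD/D vehicle replicate 2 (0.0633) or GRwt/wt vehicle replicate 2 (0.052). In GRL/L, Aldh1a3 (−0.77, SE 0.09, adjusted p = 2.16e-07 from edgeR), Aldh1a2 (−0.75, SE 0.18, adjusted p = 0.00335) and Crabp1 (−0.34, SE 0.08, adjusted p = 0.004) were lower than in GRwt/wt of run 2. Aldh1a2 did not pass there without GRL/L vehicle replicate 2 (0.0583). Crabp1 was thus below GRwt/wt in all 4 mutants before Dex.

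Markers of other cell types also differed between vehicle-treated genotypes, in some lists and not in others. The macrophage sum was lower than in GRwt/wt in GRD+L/D+L and higher in GRko/ko. The 6 macrophage markers summed to 171.7 to 303.2 CPM in GRwt/wt of run 1, 637.0 to 694.8 in GRD/D, 29.8 to 38.2 in GRD+L/D+L and 2468 to 2761 in GRko/ko, and in run 2 to 444.1 to 465.1 in GRwt/wt and 782.1 to 931.3 in GRL/L. The 6 mesothelial markers summed to 13.6 to 16.4 CPM in GRwt/wt of run 1, 16.4 to 17.8 in GRD/D, 52.1 to 60.0 in GRD+L/D+L and 40.0 to 41.9 in GRko/ko, and in run 2 to 27.2 to 29.3 and 21.7 to 25.6. Wt1 was at 1.56 to 1.85 CPM in GRwt/wt of run 1 and 10.3 to 10.4 in GRD+L/D+L. The 5 muscle markers summed to 22.4 to 28.1 CPM in GRwt/wt of run 1, 122.0 to 140.1 in GRD+L/D+L and 65.8 to 68.3 in GRko/ko, nearly all from Des, with the defining genes Myod1, Myog, Ckm and Myf5 at no more than 16 counts. The 6 neural markers were at 441.3 to 477.5, 830.0 to 871.4 and 437.0 to 459.1 CPM, the 5 endothelial markers at 9.40 to 12.1, 16.5 to 19.3 and 15.4 to 17.6 CPM, and the 6 epithelial markers at 4.28 to 5.32, 4.28 to 5.38 and 8.02 to 9.34 CPM in the same 3 groups. In 1 vehicle library of GRwt/wt run 2 the epithelial sum was 49.1 CPM. Some markers also moved with Dex. In GRwt/wt of run 1 the endothelial sum was 9.40 to 12.1 CPM with vehicle and 17.1 to 18.8 with Dex, and Wt1 was at 1.56 to 1.85 and 2.84 to 4.66 CPM. In run 2 the endothelial sum was 9.02 to 9.73 and 8.35 to 9.84 CPM, and Wt1 3.13 to 4.38 and 5.55 to 6.09 CPM. Wt1 was at 2.34 to 3.85 and 5.28 to 6.36 CPM in GRD/D and at 10.3 to 10.4 and 13.1 to 14.6 in GRD+L/D+L. The part of these cell types in the vehicle levels and Dex responses was not tested, nor was that of sex or strain.

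**Figure D3:**
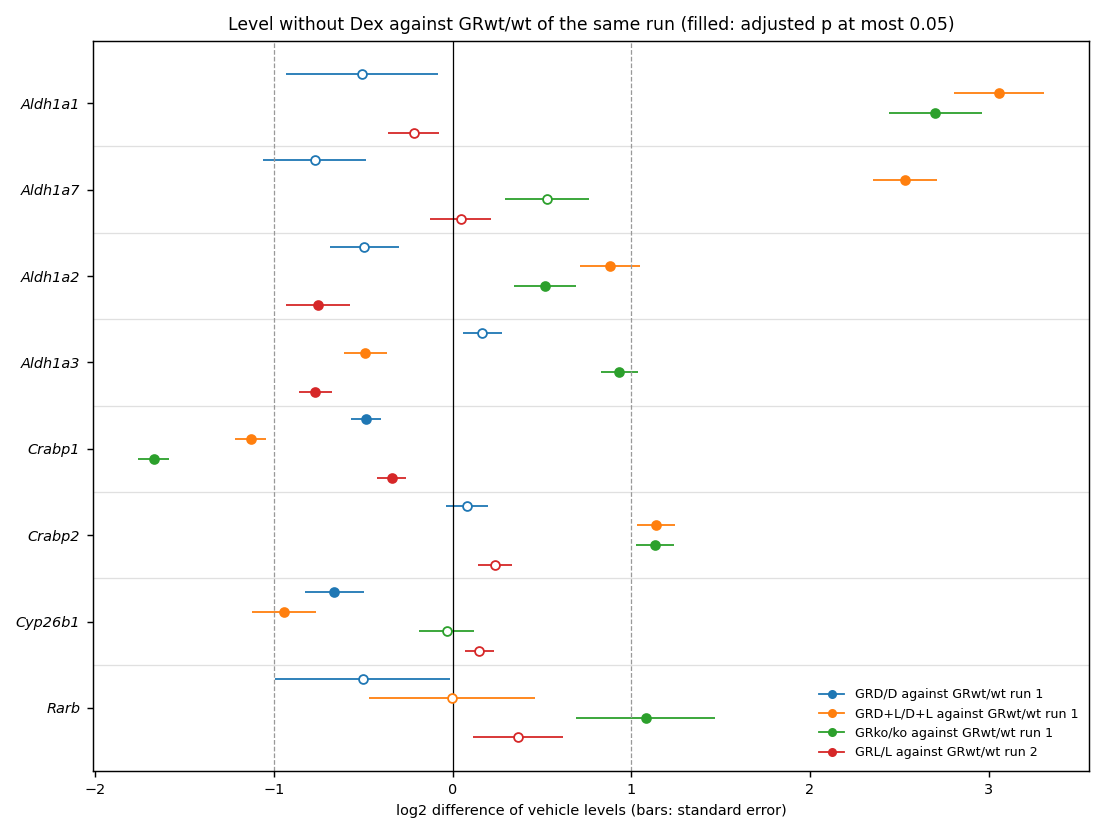
Log2 difference of the vehicle-treated mutants from vehicle-treated GRwt/wt of the same run (bars, standard error) for the 8 tested genes, with 3 libraries per group; filled points have an adjusted p of at most 0.05 and dashed lines mark −1 and 1. Aldh1a1 is at 3.06 in GRD+L/D+L and 2.70 in GRko/ko, and Crabp1 is below 0 in all 4 mutants.

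The runs of GRwt/wt differed in level as well. With vehicle, Cyp26b1 was at 5.89 ± 0.75 CPM (SD, n = 3) in run 1 and 28.8 ± 2.50 in run 2, Aldh1a1 at 0.725 ± 0.230 and 4.88 ± 0.830, and Aldh1a3 at 11.3 ± 2.28 and 17.7 ± 0.644. Run 2 lay above run 1 without overlap for these 3 genes and for Crabp1, Crabp2 and Rarb, and below it without overlap for Aldh1a2. The share of all genes that separate in this way was not counted. Aldh1a7, at 1.33 ± 0.431 and 1.79 ± 0.054 CPM, overlapped, as did Stra6. Run, sex and culture cannot be told apart here, so these values are given without a test.

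The pathway around the 9 genes was followed with a list of 57 genes, of which 42 were tested. Of the 34 tested genes that are not among the 9, 11 rose and 4 fell in GRwt/wt at the adjusted p alone, when 15.7% and 16.8% of all genes did, and 2 and 0 were called with the fold limit. The median absolute log2 response of the 34 was 0.19 and that of all genes 0.13. None of the 6 corepressors and coactivators passed, whereas the retinoic acid targets Tgm2, Meis2 and Rarres1 were higher. Of these 3, Tgm2 passed in both runs and the fold limit, Meis2 in run 1 (0.26, adjusted p = 0.00464 from edgeR) but not in run 2 (0.12, 0.0745), and Rarres1 in neither run (0.34, 0.175 and 0.15, 0.302). Of the 14 tested genes that interconvert retinol and retinaldehyde, 5 were higher and 2 lower.

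The genes outside the 9 that passed in the same direction in both runs were Tgm2, Dhrs3, Dhrs9, Bco1 and Fabp5. Tgm2, a transglutaminase induced by retinoic acid in many cells, rose by a log2 value of 1.38 (SE 0.05) in run 1 and 2.27 (SE 0.07) in run 2, and was at 0.80 in GRL/L, 0.20 in GRD/D, 0.24 in GRD+L/D+L and −0.03 in GRko/ko. All but the last passed. Its vehicle level was 170.8 to 180.0 CPM in run 1 and 8.65 to 11.5 CPM in run 2. Dhrs3, which reduces retinaldehyde back to retinol, rose by 0.67 (SE 0.12) and 0.97 (SE 0.09), and Dhrs9, a retinol dehydrogenase, by 0.85 (SE 0.10) and 0.77 (SE 0.11). Both also passed in GRL/L (0.78 and 0.58) and GRD+L/D+L (0.65 and 0.66), and Dhrs9 in GRD/D (0.55). Fabp5, which also binds retinoic acid, rose by 0.26 (SE 0.08) and 0.49 (SE 0.07). Bco1, the enzyme that cleaves beta-carotene to retinaldehyde, had 0 to 5 counts per GRwt/wt vehicle library and 22 to 38 with Dex (adjusted p = 5.01e-07 in run 1 and 5.82e-07 in run 2 from edgeR). In GRko/ko 0 of the 42 pathway genes passed, with 859 of all genes at an unadjusted p under 0.05.

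**Figure D4:**
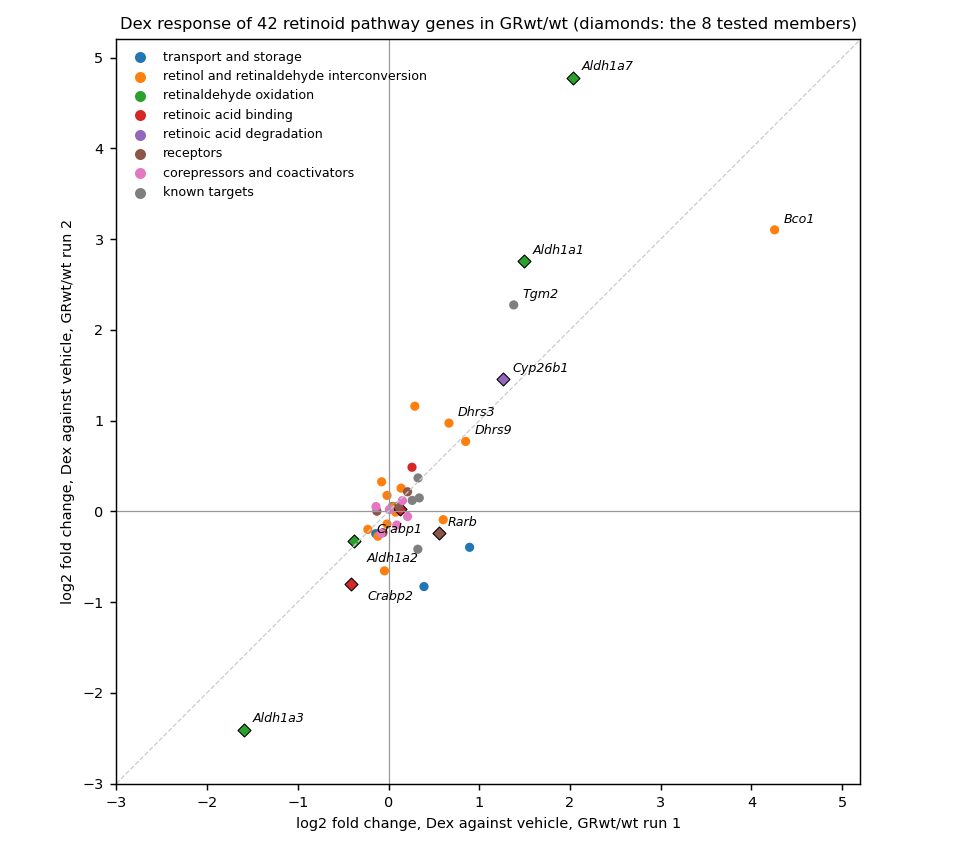
Log2 response to Dex in GRwt/wt of run 1 (x axis) and run 2 (y axis) of the 42 tested retinoid pathway genes, coloured by role, with diamonds for the 8 tested members and a dashed line where both runs are equal. Aldh1a7 lies at 2.03 and 4.78, Aldh1a3 at −1.59 and −2.41, and most other pathway genes lie near 0 in both runs.

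Across the 12 group means of log2 CPM, Aldh1a1 and Aldh1a7 had a Pearson r of 0.866 and Aldh1a3 and Aldh1a7 one of −0.662. Of the 11781 genes that averaged 50 or more counts, the 5 most like Aldh1a7 were Pdk4 (r 0.962), Tgfa (0.959), Ndrg2 (0.937), Arl4a (0.926) and Foxred2 (0.922). The 5 most like Aldh1a3 were Ank1 (r 0.946), Ngef (0.942), Zfp467 (0.933), Csrnp2 (0.926) and Gsap (0.905). These 12 points share their libraries, runs and treatments, and the values are descriptions.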

How the data were processed

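RNA-seq of 36 MEF libraries was used. The authors mapped TruSeq NextSeq reads to mm10 with HISAT2 (2.1.0 in the submitters' processing notes), and counted only uniquely mapped ones over genes by featureCounts (2.0.0). The deposited values are raw counts, with no normalization or filter. The gene annotation and strand setting are not given in the sources used here.

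Libraries were grouped from the labels by genotype, treatment and run. Counts were tested with edgeR 4.0.16 (limma 3.58.1, R 4.3.3) by glmQLFit and glmQLFTest after TMM and filterByExpr, with 1 term for each of 12 groups and all 36 libraries in the fit (common biological coefficient of variation 0.0513). The study used DESeq2 with run and condition as terms and the same thresholds. SE is the absolute log2 value over the square root of F and is approximate. Symbols were found for 55141 of 55487 identifiers. No 2 libraries of a group were copies, as their median chi-square was 1.41 to 8.35 times sampling noise. These values do not show whether the libraries of a group came from different mice. The procedure was also run on simulated counts that had no vehicle differences between genotypes or runs, and its outcome is not used here. The members and lists were chosen with earlier results of these data known.

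The genes named are the 9 members, Nr3c1 and Fkbp5 as checks, pathway genes past the adjusted p in the same direction in both GRwt/wt runs, and the 5 genes most correlated with Aldh1a3 and with Aldh1a7. Wt1, Top2b, Ccdc33, Xist, Ddx3y, Meis2, Rarres1, Lum, Pdgfra, Dcn, Col1a2, Pdgfrb and the muscle markers were named outside this rule, after their values were seen. The result of 1 listed gene is not reported here.

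Alternatives were DESeq2 1.42.0, its size factors in edgeR, no filter, at least 10 counts in every library, only the run compared, the study's formula, a replicate block, no fold limit, and each library left out. Coordinates are of mm10 (GENCODE annotation for genes, RefSeq for start windows). Figures used matplotlib 3.10.9 in Python 3.11.15.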

Additional observations from a re-analysis of the deposited data

Results flagged for a closer look

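The results below were picked out because the response to Dex differed between 2 sets of libraries by a test of the difference itself (edgeR, adjusted p of at most 0.05). There were 13 among the 8 members, as log2 differences.

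Aldh1a7 differed from GRwt/wt of run 1 by −2.24 in GRD/D, −2.16 in GRD+L/D+L and −2.36 in GRko/ko, and Aldh1a1 by −1.50 in GRD+L/D+L and −1.51 in GRko/ko. In GRko/ko, Aldh1a3 differed by 1.92, Cyp26b1 by −1.34 and Crabp2 by 0.52. In GRL/L, Cyp26b1 differed from GRwt/wt of run 2 by −0.62 and Aldh1a3 by 0.64. Between the runs of GRwt/wt, Aldh1a7 responded 2.75 more in run 2, Aldh1a1 1.26 more, and Aldh1a3 by −0.81, a larger fall. Aldh1a7 and Aldh1a1 had vehicle levels in GRD+L/D+L above those of GRwt/wt with Dex in run 1, as Aldh1a1 had in GRko/ko (4.17 to 5.94 CPM against 1.59 to 2.52), and the part of this in the response differences was not tested.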

How the results depend on the processing

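Of the single values of the members, 825 of 845 from the settings other than leaving out a library kept their side of the adjusted p of 0.05, as did 1104 of 1152 with 1 library left out, and no value that passed in either fit changed sign. Signs changed in 73 fits of values that passed in neither. The counts of members called changed as follows. They are given without the share of all genes called under each setting, so they describe the members only. With at least 10 counts in every library, which removes Aldh1a1, Aldh1a7 and Rarb, the Dex response had 2 members called in GRwt/wt, 2 in run 1, 2 in run 2 and 1 in GRL/L. The response difference then had 0 in GRD/D, 0 in GRD+L/D+L, 3 in GRko/ko and 1 between the runs, and the vehicle level 2 in GRD+L/D+L and 2 in GRko/ko. Under the study's formula, in which both runs share 1 GRwt/wt response, the response difference had 3 in GRD/D, 5 in GRD+L/D+L and 1 in GRL/L, and within run 2 alone 1 in GRL/L. The study's formula moved the vehicle difference of Aldh1a7 in GRko/ko from 0.53 to 2.41 and in GRD+L/D+L from 2.53 to 4.41, and the response difference of Aldh1a3 in GRL/L from 0.64 to 0.32. Without the fold limit there were 5 in GRL/L and 1 in GRD+L/D+L, and for vehicle levels 2 in GRD/D, 7 in GRD+L/D+L and 3 in GRL/L. With 1 library left out, the Dex response ranged from 1 to 2 in GRD/D and from 0 to 1 in GRD+L/D+L, and the response difference from 1 to 4 in GRD+L/D+L and from 1 to 2 in GRL/L. Under the study's formula each mutant was set against GRwt/wt values fitted over both runs, not those of its own run. Beyond this difference in design, the cause was not tested for the changes under that formula, within run 2 or with a library left out.

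With the replicate number as a block, the response difference had 1 member in GRL/L (Cyp26b1; Aldh1a3 at an adjusted p of 0.0715 by edgeR) and 3 in GRD+L/D+L, Cyp26b1 being added at 0.0159. The block changed no other call. The deviations of same-numbered Dex and vehicle libraries from their group means correlated at −0.0787 to 0.116. Those of differently numbered libraries correlated at −0.0884 to 0.0836. Whether the numbers pair the libraries is not settled by these values. DESeq2 and its size factors left every count of members within 1.5 times. With 3 libraries per group, Stra6 and Rarb had too few counts for small changes to be detectable.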
